A study of Mus musculus with 126 samples.

Results

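The 9 genes described here encode the cyclins that carry cells from G1 into mitosis: the D-type cyclins Ccnd1, Ccnd2 and Ccnd3, the E-type cyclins Ccne1 and Ccne2, the A-type cyclins Ccna1 and Ccna2, and the B-type cyclins Ccnb1 and Ccnb2. They were taken by gene symbol from a table of 23420 genes counted in 8 RNA-seq libraries, and all 9 were present and passed the filter on low counts, which kept 15822 genes. The 126 samples of the series are from mouse embryonic stem cells, and the study asks what DNA methylation and histone acetylation each contribute to where transcription factors bind. The other 118 samples were not used here.

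Wild type cells were of the J1 strain, and the other cells, of the same strain, carried the genotype Dnmt1-/-, Dnmt3a-/-, Dnmt3b-/- (TKO), which removes the enzymes that place and copy DNA methylation. Each genotype received 5 ng/µl Trichostatin A (TSA), an inhibitor of histone deacetylases, or 0.0033% DMSO, its solvent, for 36 h. This gave 4 groups of 2 libraries, called DMSO-WT, TSA-WT, DMSO-TKO and TSA-TKO below by treatment and genotype. All groups were grown on gelatin in medium with serum and leukaemia inhibitory factor. The submitters call the 2 libraries of a group biological replicates, the sources used here do not say whether they came from separate cultures, and whether the TKO cells were 1 clone is not given in them either. With no more than that, the p-values measure the spread between these libraries, which may be technical.

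Cyclins are the regulatory subunits of cyclin-dependent kinases. D-type cyclins join Cdk4 and Cdk6 in G1 and link growth signals to phosphorylation of the retinoblastoma protein, E-type cyclins join Cdk2 at the start of S phase, A-type cyclins act in S phase and G2, and B-type cyclins join Cdk1 to start mitosis. Mouse embryonic stem cells are known for a short G1, for little D-type cyclin and for cyclin E that varies little along the cycle. Most cyclin protein is controlled by timed destruction, so the mRNA levels given here are not protein levels.

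Total counts ran from 13280631 to 15542527 per library. Levels are normalised CPM, that is counts relative to the library total after scaling by TMM factors, and levels are compared between genes only per kilobase of exon (RPKM). A level of 3 counts corresponded to 0.183 to 0.243 CPM, and every member was above that in every library. Dnmt3b was at 588 to 596 CPM in DMSO-WT and 43.6 to 46.2 in DMSO-TKO, Dnmt3a at 185 to 236 and 25.9 to 27.0, and Dnmt1 at 428 to 464 and 126 to 134, so all 3 targeted genes were lower in the libraries labelled TKO. The summed level of 8 pluripotency markers lay between 3053 and 3441 CPM in DMSO-WT, 3910 and 4227 in DMSO-TKO, 1668 and 1855 in TSA-WT, and 1592 and 1944 in TSA-TKO, with none of the 8 at 0 in any group.

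Per kilobase, Ccne1, Ccna2, Ccnb1 and Ccnb2 were above every D-type cyclin in DMSO-WT, while Ccne2 was below Ccnd1 and Ccna1 was below all D-type cyclins. In DMSO-WT, Ccne1 (158 ± 11.1 RPKM, SD, n = 2) and Ccna2 (150 ± 2.65) were the 2 highest members and their ranges overlapped. Ccnb2 (111 ± 9.53) and Ccnb1 (97.6 ± 12.6) followed, also with overlapping ranges, ahead of Ccnd1 (75.9 ± 9.67). Ccne2 (24.5 ± 1.65), Ccnd3 (19.6 ± 2.32), Ccnd2 (3.10 ± 0.772) and Ccna1 (0.643 ± 0.251) came next in that order, with no overlap between neighbours. Averaged over the 8 libraries, Ccne1 stood at the 98.0th percentile of all tested genes per kilobase, Ccna2 at the 97.1st, Ccnb2 at the 95.5th, Ccnb1 at the 93.9th, Ccnd1 at the 84.3rd, Ccnd3 at the 75.5th, Ccne2 at the 73.5th, Ccnd2 at the 27.9th and Ccna1 at the 21.7th. In TSA-TKO, Ccne1 was again first at 224 ± 13.6 RPKM, while Ccnd1 had moved from 5th to 7th place and Ccnd2 from 8th to 9th.

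**Figure D1:**
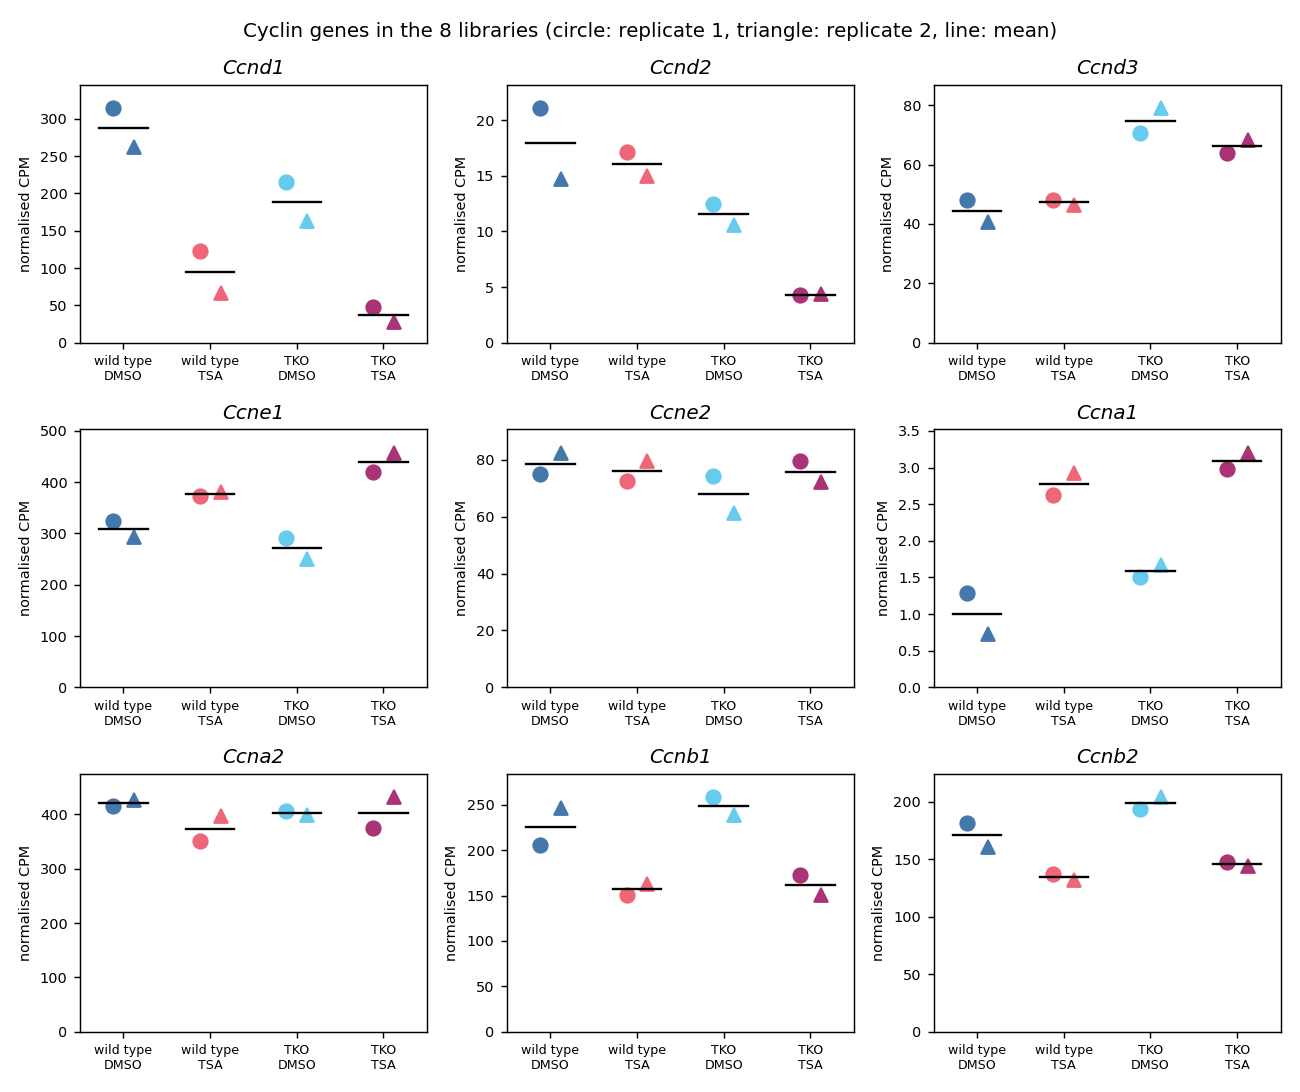
Normalised CPM (vertical axes, linear from 0, scaled per gene) of the 9 cyclin genes in the 4 groups; circles are replicate 1, triangles replicate 2 and lines the mean of 2 libraries. Ccnd1 falls from 262 and above in DMSO-WT to below 48 in TSA-TKO, Ccne1 is highest in TSA-TKO, and the group means of Ccne2 and Ccna2 span the least, 0.22 and 0.17 on the log2 scale.

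With TSA, Ccnd1 and both B-type cyclins fell and Ccne1 and Ccna1 rose in each genotype. In wild type cells 5 of the 9 members passed the test, 2 higher and 3 lower, beside 52.8% of all tested genes (27.0% higher, 25.9% lower). In TKO cells 6 of 9 passed, 2 higher and 4 lower, beside 58.7% of all genes (30.8% higher, 27.9% lower). The shares of members called are near these backgrounds, so the counts alone say nothing particular about cyclins. The median log2 fold change of the 9 members was -0.16 in wild type and -0.18 in TKO, beside 0.012 and 0.038 over all genes. Because these are bulk libraries, a smaller part of the cells in the phase that uses a cyclin and less of its RNA per cell cannot be told apart. Pluripotency markers were lower with TSA: 7 of the 8 were called lower in each genotype and 0 higher. Their median change was -0.89 in wild type and -1.16 in TKO. Markers of other cell types also differed with TSA. Of 6 trophoblast markers, 0 were called lower in either genotype. The means of Cdx2, Hand1 and Tfap2c were higher with TSA in each genotype. Mean Ascl2 went from 3.93 to 5.96 CPM in wild type and from 7.95 to 8.70 in TKO. Mean Eomes fell from 7.83 to 5.53 CPM in wild type and rose from 2.62 to 12.7 in TKO. The summed level of the 6 trophoblast markers lay between 52.7 and 54.1 CPM in DMSO-WT and between 172 and 189 in TSA-WT, and between 45.9 and 66.6 in DMSO-TKO and between 261 and 264 in TSA-TKO. Most of that sum was Tfap2c, with means of 38.1, 124, 43.7 and 203 CPM in the same order of groups. Of 6 primitive endoderm markers 1 was called in each genotype, higher, and the median change was 0.34 in wild type and -0.11 in TKO, while their summed level lay between 12.8 and 14.5 in DMSO-WT, 17.0 and 19.1 in TSA-WT, 25.9 and 28.1 in DMSO-TKO, and 32.9 and 35.6 in TSA-TKO. Of 6 neural markers, 4 were called lower in wild type and 3 in TKO, while mean Map2 rose from 19.8 to 41.0 CPM in wild type and from 18.9 to 28.1 in TKO. The summed level of the 6 was lower with TSA, between 334 and 417 in DMSO-WT, 173 and 207 in TSA-WT, 294 and 323 in DMSO-TKO, and 158 and 166 in TSA-TKO. No gene of these lists was at 0 in both libraries of a group. At 3 counts or fewer in both libraries were 1 trophoblast marker in DMSO-TKO and 1 neural marker in each DMSO group. The trophoblast marker Elf5 and the neural marker Neurog2 were at most at 0.405 and 0.081 CPM in the DMSO libraries. Both passed the filter on low counts only through TSA libraries, where they are high, so their calls are not given as support. The part of these markers in the cyclin results was not tested.

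Ccnd1 (chromosome 7, 144929931 to 144939925) encodes cyclin D1, the D-type cyclin most responsive to growth signals. It was at 314 and 262 CPM in DMSO-WT, 124 and 66.8 in TSA-WT, 215 and 163 in DMSO-TKO, and 47.7 and 27.3 in TSA-TKO. The 4 groups did not overlap, and each genotype's TSA libraries lay below its DMSO libraries. With TSA it fell by 1.60 on the log2 scale in wild type (SE 0.28, 3.02-fold, edgeR adjusted p = 0.00081) and by 2.33 in TKO (SE 0.29, 5.04-fold, edgeR adjusted p = 6.62e-05). Both calls held in all 15 alternative analyses, with the change between -2.11 and -1.22 in wild type and between -2.79 and -1.99 in TKO.

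Ccnd1 also varied between replicates. Replicate 1 was above replicate 2 in every group, by 1.20-fold in DMSO-WT, 1.85-fold in TSA-WT, 1.32-fold in DMSO-TKO and 1.75-fold in TSA-TKO. Between genotypes it was lower in TKO under TSA by 1.35 on the log2 scale (SE 0.29, edgeR adjusted p = 0.0092), a call that ended without TSA-WT replicate 1 (-0.83, adjusted p = 0.0791) or TSA-TKO replicate 2 (-0.995, adjusted p = 0.0636). In DMSO the difference was -0.61 (95% interval -1.21 to -0.011) and did not pass (edgeR adjusted p = 0.143). It passed in only 2 of 15 alternatives, among them the edgeR fit that held only the 2 groups compared (adjusted p = 0.0119).

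Ccnd2 (chromosome 6, 127125709 to 127151048), which encodes cyclin D2, was 1 of the 2 lowest members. It was at 21.0 and 14.7 CPM in DMSO-WT, 17.1 and 15.0 in TSA-WT, 12.4 and 10.6 in DMSO-TKO, and 4.26 and 4.39 in TSA-TKO. Wild type libraries overlapped between DMSO and TSA, and the TSA-TKO libraries were below all others. In TKO cells it fell with TSA by 1.41 on the log2 scale (SE 0.22, 2.66-fold, edgeR adjusted p = 0.000237), while the wild type change was -0.16 (95% interval -0.57 to 0.25, edgeR adjusted p = 0.496). The difference between these 2 responses, tested as the interaction, was -1.25 (SE 0.29) and missed the threshold (edgeR adjusted p = 0.062). Only 4 of 14 alternatives called it, among them the edgeR fit without the filter on low counts (adjusted p = 0.0156) and DESeq2 (adjusted p = 0.0228). Without DMSO-WT replicate 1 the interaction was -1.53.

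TKO cells held less Ccnd2 than wild type cells under TSA, by 1.89 on the log2 scale (SE 0.21, 3.71-fold, edgeR adjusted p = 0.000255), which held in all 15 alternatives. In DMSO the difference was -0.64 (SE 0.19, edgeR adjusted p = 0.0388). That call ended without DMSO-WT replicate 1 (-0.37, adjusted p = 0.275), without DMSO-TKO replicate 1 (adjusted p = 0.0846) or 2 (adjusted p = 0.225), in DESeq2 (adjusted p = 0.0567) and where only the 2 groups entered the fit (adjusted p = 0.0549).

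Ccnd3 (chromosome 17, 47505051 to 47599688), which encodes cyclin D3, went the other way between genotypes. It was at 48.1 and 40.7 CPM in DMSO-WT, 48.1 and 46.5 in TSA-WT, 70.7 and 78.9 in DMSO-TKO, and 63.8 and 68.4 in TSA-TKO. Every TKO library was above every wild type library. It was higher in TKO by 0.75 on the log2 scale in DMSO (SE 0.11, 1.68-fold, edgeR adjusted p = 0.00111), in all 15 alternatives, and by 0.48 under TSA (SE 0.11, 1.40-fold, edgeR adjusted p = 0.0129). The call under TSA ended without TSA-WT replicate 1 or 2 or TSA-TKO replicate 2, with adjusted p between 0.0672 and 0.0858. TSA itself moved Ccnd3 by 0.091 in wild type (95% interval -0.16 to 0.34) and by -0.18 in TKO (-0.42 to 0.066), and neither passed. Of its exon bases, 358 (15.8%) are shared with Bysl on the other strand, and whether counting used strand is not given in the sources used here. Bysl lay between 97.1 and 129 CPM in all libraries and its change between genotypes in DMSO was -0.034 (edgeR adjusted p = 0.843).

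Across genotypes 2 of 9 members passed in DMSO, 1 higher and 1 lower, beside 20.4% of all tested genes (9.63% higher, 10.7% lower), a share close to that of the members. Under TSA 3 of 9 passed, 1 higher and 2 lower, beside 18.4% of all genes (10.0% higher, 8.38% lower). All members called between genotypes were D-type. Several marker lists differed between genotypes as well. In DMSO 4 of 6 primitive endoderm and 4 of 8 pluripotency markers were called higher in TKO, and 0 lower, beside 9.63% higher of all genes. Under TSA 2 primitive endoderm markers were higher and 0 lower, and 3 pluripotency markers were higher and 1 lower. Mesenchymal markers went the other way. Of 8 such genes, 5 were called lower in TKO in DMSO and 4 under TSA, beside 10.7% and 8.38% of all genes, and 0 higher. Their summed level lay between 231 and 456 CPM in DMSO-WT, 282 and 488 in TSA-WT, 17.3 and 31.2 in DMSO-TKO, and 40.6 and 49.1 in TSA-TKO. Tagln alone was at 153 and 351 CPM in DMSO-WT. Under TSA the means of Lum (5.19 against 3.52 CPM) and Postn (1.64 against 1.04) were higher in TKO. None of the 8 was at 0 in both libraries of a group, but 1 in DMSO-WT and 2 in DMSO-TKO were at 3 counts or fewer in both. The part of these markers in the lower Ccnd1 and Ccnd2 of TKO cells was not tested.

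**Figure D2:**
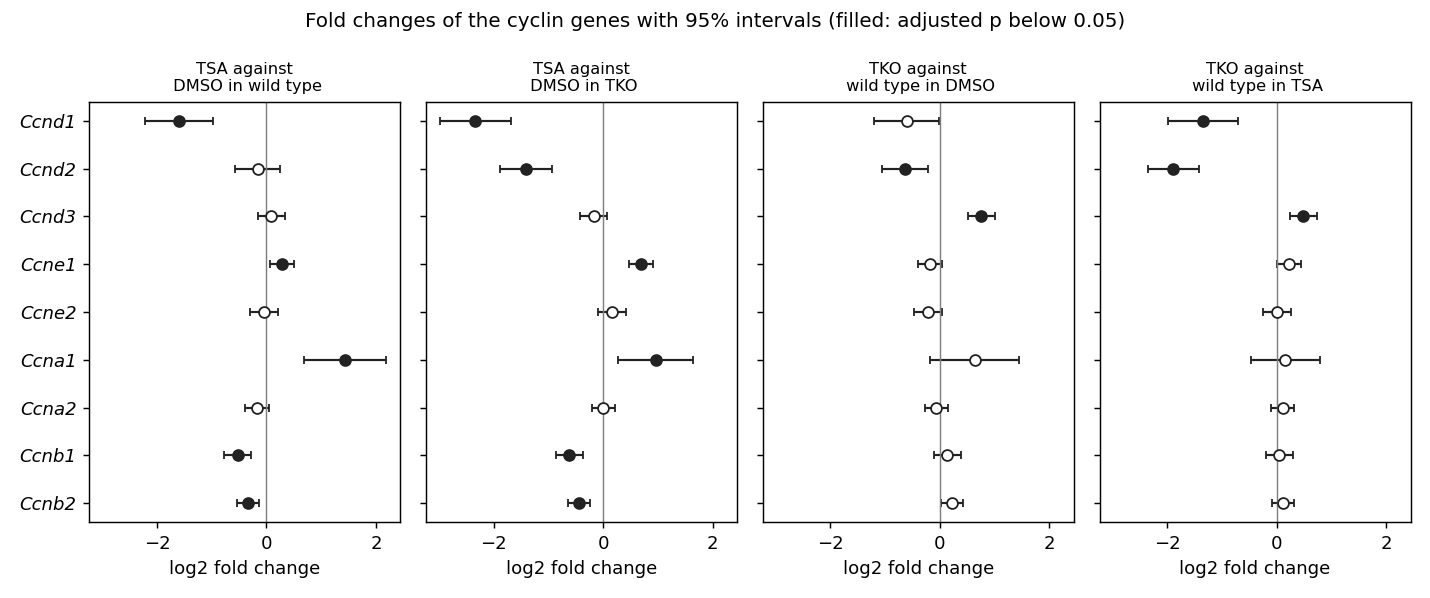
Log2 fold change (horizontal axes) of the 9 cyclin genes in 4 comparisons, with 95% intervals from the edgeR fit; filled points had an adjusted p below 0.05. In the 2 left panels Ccnd1, Ccnb1 and Ccnb2 lie left of 0 and Ccne1 and Ccna1 right of it, and in the 2 right panels the filled points are D-type cyclins.

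The make-up of the D-type cyclins, as shares of their summed RPKM, moved from Ccnd1 towards Ccnd3. With TSA, Ccnd1 fell while Ccnd3 itself was not called. Mean Ccnd3 was 19.6 RPKM in DMSO-WT and 20.9 in TSA-WT, and 33.1 in DMSO-TKO and 29.3 in TSA-TKO. Shares within a library are not independent of each other. Ccnd1 held 76.8% and 77.1% in DMSO-WT, 57.3% and 43.1% in TSA-WT, 62.9% and 53.8% in DMSO-TKO, and 30.3% and 18.8% in TSA-TKO. Ccnd3 held 19.9% ± 0.225 (SD, n = 2) in DMSO-WT, 44.0% ± 9.21 in TSA-WT, 39.3% ± 6.45 in DMSO-TKO and 73.6% ± 7.94 in TSA-TKO. Ccnd3 was thus the smaller of these 2 in both DMSO-WT libraries and the larger in both TSA-TKO libraries. Averaged over the genotypes, TSA moved the Ccnd1 share by -30.3 percentage points and the Ccnd3 share by 29.2. An exact two-sided permutation test within genotypes gave p = 0.0556 for each, the smallest it can give (adjusted p = 0.0833 over 6 shares), so this design cannot pass 0.05. The Ccnd2 share was 3.12% ± 0.379, 5.80% ± 0.824, 2.35% ± 0.0603 and 1.88% ± 0.152 in the same order of groups (TSA against DMSO within genotypes, exact permutation p = 0.333, adjusted p = 0.333). The summed level of the 3 genes was 98.6 ± 12.8 RPKM in DMSO-WT, 48.8 ± 11.3 in TSA-WT, 84.8 ± 7.34 in DMSO-TKO and 39.9 ± 2.37 in TSA-TKO (SD, n = 2).

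**Figure D3:**
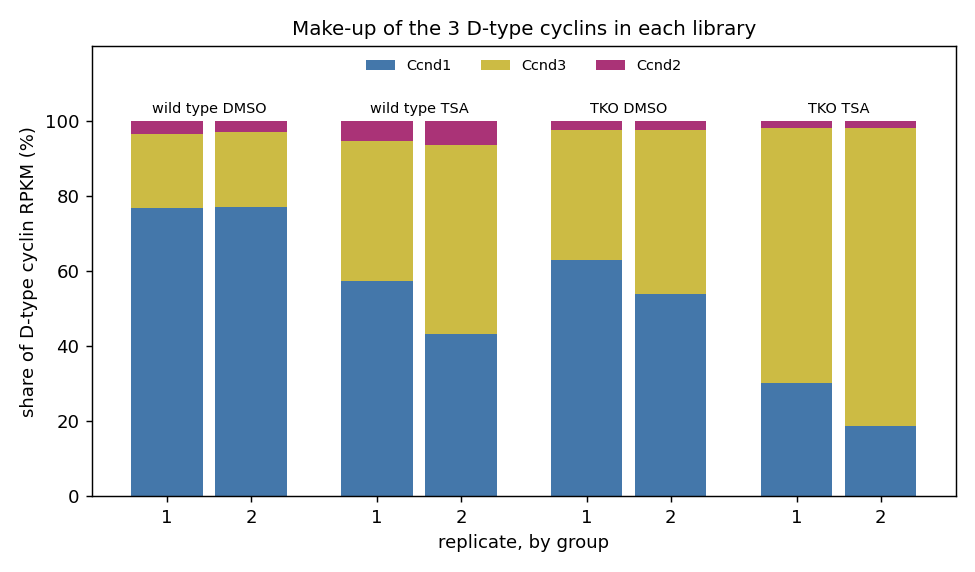
Share of the summed RPKM of Ccnd1, Ccnd2 and Ccnd3 (vertical axis, percent) held by each gene in each of the 8 libraries, grouped by genotype and treatment. The Ccnd1 part shrinks from 76.8% and 77.1% in DMSO-WT to 30.3% and 18.8% in TSA-TKO, and the Ccnd3 part fills most of the bar there.

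Ccne1 (chromosome 7, 38097984 to 38107490) encodes cyclin E1, which activates Cdk2 for entry into S phase. It was at 324 and 293 CPM in DMSO-WT, 373 and 380 in TSA-WT, 292 and 250 in DMSO-TKO, and 420 and 457 in TSA-TKO. TSA libraries were above DMSO libraries throughout, and the TSA-TKO libraries were highest. The increase was 0.69 on the log2 scale in TKO (SE 0.10, 1.62-fold, edgeR adjusted p = 0.00017) and held in all 15 alternatives. In wild type it was 0.29 (SE 0.10, 1.22-fold, edgeR adjusted p = 0.0319), and that call ended without DMSO-WT replicate 2 (0.21, adjusted p = 0.154) or without TSA-WT replicate 1 (adjusted p = 0.091) or 2 (adjusted p = 0.13). The interaction of 0.41 (95% interval 0.096 to 0.72) did not pass (edgeR adjusted p = 0.207).

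The RefSeq promoter of Ccne1 (GRCm38.p6, minus strand, chr7:38107476-38107610) is shown because this gene rose where the B-type cyclins fell. It runs from 120 bases before to 15 after the annotated start, 5′ to 3′ on the strand of the gene, and capitals mark GC boxes, the letters GGGCGG, which are a known binding sequence of Sp1.
Ccne1: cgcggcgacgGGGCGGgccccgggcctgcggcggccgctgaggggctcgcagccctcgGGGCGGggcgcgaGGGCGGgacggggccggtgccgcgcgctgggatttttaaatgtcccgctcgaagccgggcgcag
The 3 GC boxes begin 110, 62 and 49 bases before the start. Searched on both strands over the 300 bases from 250 before to 50 after the start, the window held 4 GGGCGG and no CCAAT. At least 3 GGGCGG were found in 10.7% of the 32851 such windows in the table. The windows of Ccnb1, which fell with TSA, and of Ccna1 also held 3 each, and that of Ccnb2 held 1. GC boxes are thus not particular to Ccne1 among these genes. The window holds 41 CpG dinucleotides, more than or as many as 97% of all windows, whose median is 7. Methylation of this promoter was not measured in the RNA-seq libraries.

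Ccne2 (chromosome 4, 11191354 to 11204779), which encodes cyclin E2, was at 75.0 and 82.5 CPM in DMSO-WT, 72.6 and 79.5 in TSA-WT, 74.4 and 61.4 in DMSO-TKO, and 79.6 and 72.2 in TSA-TKO. Its groups overlapped in both TSA comparisons. The TSA changes were -0.049 (95% interval -0.31 to 0.21) in wild type and 0.16 (-0.097 to 0.42) in TKO. With libraries scaled by total counts alone the TKO change was 0.31 and passed (adjusted p = 0.0354). More than 1 in 2 of its exon bases (1734, or 53.9%) are shared with Ints8 on the other strand, so its level is uncertain if strand was not used. Ints8 fell with TSA by 0.32 in wild type (edgeR adjusted p = 0.0234) and by 0.36 in TKO (edgeR adjusted p = 0.0113). Ccne1 made up 86.5% ± 1.60, 89.1% ± 0.496, 86.8% ± 0.311 and 90.5% ± 1.12 of the summed E-type RPKM in DMSO-WT, TSA-WT, DMSO-TKO and TSA-TKO (SD, n = 2). The exact permutation p was again 0.0556 (adjusted p = 0.0833).

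Ccna2 (chromosome 3, 36564865 to 36571996) encodes cyclin A2, the A-type cyclin of dividing somatic cells, and was the most constant member. It was at 416 and 426 CPM in DMSO-WT, 351 and 397 in TSA-WT, 406 and 399 in DMSO-TKO, and 375 and 431 in TSA-TKO. The means of the 4 groups spanned 0.17 on the log2 scale, beside 2.97 for Ccnd1. The TSA change was -0.17 in wild type (95% interval -0.39 to 0.043, edgeR adjusted p = 0.16), where the groups did not overlap, and 0.0023 in TKO (-0.21 to 0.22), where they did. No comparison called it under any alternative. It shares 378 exon bases (13.4%) with Exosc9 on the other strand, which lay between 77.9 and 96.5 CPM.

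Ccna1 (chromosome 3, 55045469 to 55055055) encodes cyclin A1, known chiefly from male germ cells, and was the lowest member in wild type cells. Its raw counts were 18 and 9 in DMSO-WT, 43 and 43 in TSA-WT, 22 and 23 in DMSO-TKO, and 44 and 51 in TSA-TKO. These correspond to 1.28, 0.729, 2.62, 2.92, 1.50, 1.67, 2.98 and 3.20 CPM, and each TSA library was above each DMSO library. The increase was 1.44 on the log2 scale in wild type (SE 0.34, 2.70-fold, edgeR adjusted p = 0.00479), in all 15 alternatives. In TKO it was 0.96 (SE 0.31, 1.94-fold, edgeR adjusted p = 0.0209), a call that ended in DESeq2 (adjusted p = 0.0975) and without any 1 of the 4 TKO libraries (adjusted p between 0.0534 and 0.111). Ccna1 remained a small part of its family: it was 1.36% ± 0.0638 of the A-type RPKM in TSA-TKO, against 0.429% ± 0.173 in DMSO-WT (TSA against DMSO within genotypes, exact permutation p = 0.0556, adjusted p = 0.0833). With TSA the summed level of 7 germ cell markers went from between 68.0 and 102 CPM in DMSO-WT to between 148 and 205 in TSA-WT. In TKO it went from between 207 and 232 in DMSO-TKO to between 394 and 404 in TSA-TKO. Across genotypes the sum was higher in DMSO-TKO than in TSA-WT, unlike Ccna1. Among the listed genes only Dazl had a higher mean in DMSO-TKO than in TSA-WT. The means of the others, such as Mael (29.0 against 69.3 CPM), were lower there, as that of Ccna1 was. Mean Dazl rose from 10.4 to 42.0 CPM in wild type and from 141 to 263 in TKO, while Ddx4 fell from 19.0 to 7.97 in TKO. In wild type 5 of the 7 were called higher and 0 lower, beside 27.0% and 25.9% of all genes. In TKO 5 were higher and 1 lower, beside 30.8% and 27.9%. None of the 7 was at 0 in both libraries of a group, and their part in the Ccna1 result was not tested.

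The promoter of Ccna1 (minus strand, chr3:55055041-55055175) is shown over the same stretch for its many CpG, the dinucleotides that DNA methylation acts on. Between genotypes Ccna1 did not pass, at 0.64 in DMSO (95% interval -0.17 to 1.44, edgeR adjusted p = 0.256) and 0.16 under TSA (-0.48 to 0.79, edgeR adjusted p = 0.747). Capitals mark ATTGG, which reads as a CCAAT box on the other strand.
Ccna1: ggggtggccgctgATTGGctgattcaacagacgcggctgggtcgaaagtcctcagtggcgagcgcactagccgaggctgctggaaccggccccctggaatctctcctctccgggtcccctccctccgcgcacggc
That element begins 107 bases before the start. The 300-base window holds 35 CpG, more than or as many as 93.8% of all windows.

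Ccnb1 and Ccnb2 encode the cyclins that activate Cdk1 at the entry to mitosis, and both fell with TSA in both genotypes. Ccnb1 (chromosome 13, 100778739 to 100786486) was at 205 and 247 CPM in DMSO-WT, 151 and 163 in TSA-WT, 258 and 239 in DMSO-TKO, and 173 and 151 in TSA-TKO. The DMSO libraries of both genotypes were above all TSA libraries. It fell by 0.53 on the log2 scale in wild type (SE 0.11, 1.44-fold, edgeR adjusted p = 0.00246) and by 0.62 in TKO (SE 0.11, 1.53-fold, edgeR adjusted p = 0.000704), in all 15 alternatives each.

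Ccnb2 (chromosome 9, 70407689 to 70421554) was at 181 and 161 CPM in DMSO-WT, 137 and 132 in TSA-WT, 193 and 204 in DMSO-TKO, and 147 and 144 in TSA-TKO. Its DMSO and TSA libraries did not overlap either. It fell by 0.44 on the log2 scale in TKO (SE 0.091, 1.36-fold, edgeR adjusted p = 0.0017), in all 15 alternatives, and by 0.34 in wild type (SE 0.092, 1.27-fold, edgeR adjusted p = 0.00894). The wild type call ended with scaling by total counts (-0.14, adjusted p = 0.215) or upper quartile (-0.19, adjusted p = 0.0867), and without DMSO-WT replicate 1 (adjusted p = 0.0529) or TSA-WT replicate 2 (adjusted p = 0.07). Scaling shifts all genes: with total counts the median of all genes moved to 0.22 in wild type and 0.19 in TKO, with upper quartile to 0.16 and 0.11. Neither B-type cyclin passed between genotypes, and the interaction was -0.091 for Ccnb1 (95% interval -0.44 to 0.25) and -0.10 for Ccnb2 (-0.38 to 0.18).

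The promoters of the B-type pair are shown because the 2 genes moved together. Promoters of mitotic genes are known to carry CCAAT boxes, bound by NF-Y, and the CHR element TTTGAA, bound by the MuvB complex, and capitals mark these letters (Ccnb1, minus strand, chr13:100786472-100786606; Ccnb2, minus strand, chr9:70421540-70421674).
Ccnb1: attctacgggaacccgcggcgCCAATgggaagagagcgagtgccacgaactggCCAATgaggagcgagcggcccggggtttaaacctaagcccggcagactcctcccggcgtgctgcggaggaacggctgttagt
Ccnb2: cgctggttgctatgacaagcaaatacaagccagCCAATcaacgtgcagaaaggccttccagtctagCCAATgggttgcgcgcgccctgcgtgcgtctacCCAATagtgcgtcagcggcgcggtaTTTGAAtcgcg
In Ccnb1 CCAAT begins 99 and 67 bases before the start, and in Ccnb2 it begins 87, 54 and 21 bases before. Ccnb2 has TTTGAA at base 5 of the transcript and another 167 bases before the start, outside the stretch shown. No 2 of the marked motifs overlap. Over the same 300-base windows, at least 2 CCAAT on either strand were found in 11.7% of all 32851 windows, at least 3 in 3.37%, and at least 1 TTTGAA in 17.9%. The Ccnb1 window holds no TTTGAA, which says only that these letters are not in it. The windows hold 29 CpG in Ccnb1 and 19 in Ccnb2. Promoters were found for 5 of the 9 members: the fifth, Ccnd3, has 2 annotated starts with 15 and 28 CpG in their windows. RefSeq also lists pseudogene copies of Ccnb1, Ccnb2 and Ccnd3 that are not rows of the count table. Whether reads from these copies entered the counts was not tested.

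Within a library, the ratio of 2 genes does not depend on library scaling. Ccne1 and Ccnb1 were chosen for it after they were seen to move in opposite directions, and they do not stand for all S phase cyclins, since Ccna2 and Ccne2 were not called with TSA. The ratio of Ccne1 to Ccnb1 RPKM was 1.87 and 1.41 in DMSO-WT, 2.92 and 2.77 in TSA-WT, 1.34 and 1.24 in DMSO-TKO, and 2.88 and 3.58 in TSA-TKO. Each TSA library was above each DMSO library. The summed B-type level was 209 ± 3.08 RPKM in DMSO-WT, 155 ± 1.06 in TSA-WT, 236 ± 1.12 in DMSO-TKO and 165 ± 7.92 in TSA-TKO (SD, n = 2). Ccnb1 held between 41.0% and 50.5% of that sum in all 8 libraries, and TSA moved its share by -3.06 percentage points (exact permutation p = 0.222, adjusted p = 0.267 over 6 shares).

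With both changes, TSA-TKO against DMSO-WT, 7 of 9 members passed, 3 higher and 4 lower, beside 61.9% of all tested genes (31.7% higher, 30.2% lower). These libraries are shared with the comparisons above. Ccnd1 was lower by 2.94 on the log2 scale (SE 0.30, 7.69-fold, edgeR adjusted p = 1.31e-05), Ccnd2 by 2.05 (SE 0.21, 4.14-fold, edgeR adjusted p = 1.47e-05) and Ccnb1 by 0.48 (edgeR adjusted p = 0.00304). Ccna1 was higher by 1.59 (SE 0.34, edgeR adjusted p = 0.00179), Ccnd3 by 0.57 (edgeR adjusted p = 0.0011) and Ccne1 by 0.51 (edgeR adjusted p = 0.00115). Ccnb2 was lower by 0.23 (edgeR adjusted p = 0.0468), a call held in only 2 of 15 alternatives. For the interaction, 1.35% of all genes passed (0.879% higher, 0.468% lower), and 0 of the 9 members did in edgeR. At an unadjusted p below 0.05 edgeR had 2, Ccnd2 and Ccne1, and DESeq2 called 1, Ccnd2.

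The kinases that the cyclins activate fell with TSA. All 4 genes of that list, Cdk1, Cdk2, Cdk4 and Cdk6, were called lower in each genotype, beside 25.9% of all tested genes in wild type and 27.9% in TKO, with a median log2 fold change of -0.76 in wild type and -0.83 in TKO. Cdk6, a partner of the D-type cyclins, went from 58.3 ± 8.61 CPM (SD, n = 2) to 21.1 ± 6.54 in wild type (-1.46 on the log2 scale, edgeR adjusted p = 0.000188) and from 42.6 ± 3.68 to 20.4 ± 3.79 in TKO (-1.07, edgeR adjusted p = 0.000997). Cdk4, their other partner, fell by 0.83 (edgeR adjusted p = 6.39e-05) and 0.96 (edgeR adjusted p = 1.42e-05) in the 2 genotypes. Cdk2, the partner of cyclin E, fell by 0.70 (edgeR adjusted p = 0.000358) and 0.69 (edgeR adjusted p = 0.000245), in the libraries where Ccne1 rose. Cdk1 fell by 0.38 and 0.37 (edgeR adjusted p = 0.00263 and 0.00255).

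Of the 7 genes of the CDK inhibitor list, 4 were called higher and 1 lower in wild type and 5 higher and 1 lower in TKO, beside 27.0% and 30.8% of all genes called higher, with medians of 0.77 and 1.04. Cdkn2c, an inhibitor of Cdk4 and Cdk6, rose from 0.726 ± 0.119 to 2.91 ± 0.401 CPM in wild type (SD, n = 2; edgeR adjusted p = 0.000681) and from 1.69 ± 0.126 to 6.93 ± 1.10 in TKO (edgeR adjusted p = 0.000101). Cdkn1b, which encodes p27, was the 1 called lower: it fell by 1.85 on the log2 scale in wild type (edgeR adjusted p = 3.69e-05) and by 1.75 in TKO (edgeR adjusted p = 2.24e-05). Cdkn2d was not called, at -0.14 in wild type (edgeR adjusted p = 0.48) and -0.15 in TKO (edgeR adjusted p = 0.416). Cdkn1c, which encodes p57, rose in TKO by 1.98 (edgeR adjusted p = 2.5e-05), was 0.42 in wild type (edgeR adjusted p = 0.0992), and its interaction of 1.55 passed (edgeR adjusted p = 0.0348). Of the 8 activators and inhibitory kinases of the cyclin-CDK pairs, 0 were higher and 4 lower in wild type and 1 higher and 3 lower in TKO. Among all genes 25.9% were called lower in wild type and 27.9% in TKO. Cdc25a, the phosphatase that activates Cdk2, was among the lower ones, at -0.73 (edgeR adjusted p = 7.23e-05) and -0.55 (edgeR adjusted p = 0.000259).

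Among 13 pocket protein and E2F genes, 3 were higher and 5 lower with TSA in wild type, and 3 higher and 4 lower in TKO. In wild type 27.0% of all genes were called higher and 25.9% lower, and in TKO 30.8% and 27.9%. The shares of this short list are not far from these, so the counts say little about it. Rb1, the retinoblastoma protein that D-type cyclins inactivate, rose from 19.1 ± 2.41 to 37.3 ± 3.27 CPM in wild type (SD, n = 2; edgeR adjusted p = 0.000192) and from 26.1 ± 2.15 to 58.0 ± 3.07 in TKO (edgeR adjusted p = 3.16e-05). The S phase list, targets of E2F, had 13 of 16 lower in each genotype, beside 25.9% and 27.9% of all genes. In this list 0 were higher in wild type and 1 in TKO (Slbp, 0.35, edgeR adjusted p = 0.0068), beside 27.0% and 30.8% of all genes. Mcm2, a subunit of the replicative helicase, fell by 0.84 in wild type (edgeR adjusted p = 5.98e-05) and by 1.05 in TKO (edgeR adjusted p = 8.47e-06). This list had a median of -0.54 and -0.64 in the 2 genotypes.

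Among genes of mitosis and their regulators, more were called lower than higher with TSA, against 25.9% lower and 27.0% higher of all genes in wild type and 27.9% and 30.8% in TKO. Of 10 MuvB, B-Myb, FoxM1 and NF-Y genes, 5 were lower in wild type and 7 in TKO, and 0 were higher, with a median of -0.42 in each. Mybl2, which encodes B-Myb, a partner of MuvB at mitotic promoters, went from 229 ± 12.6 to 80.4 ± 3.98 CPM in wild type (SD, n = 2; edgeR adjusted p = 5.87e-06) and from 263 ± 29.3 to 86.4 ± 3.21 in TKO (edgeR adjusted p = 1.85e-06). Of the NF-Y subunits, Nfyc fell by 0.59 in wild type (edgeR adjusted p = 0.00404) and Nfya by 0.54 in TKO (edgeR adjusted p = 0.011). Nfya was -0.15 in wild type (edgeR adjusted p = 0.421) and Nfyc -0.33 in TKO (edgeR adjusted p = 0.0552), and Nfyb was -0.044 and 0.049 in the 2 genotypes, none of these called. Of 21 genes transcribed in G2 and mitosis, 14 were lower and 1 higher in each genotype, with medians of -0.36 and -0.34. Plk1, a mitotic kinase, fell by 0.90 (edgeR adjusted p = 4.53e-05) and 0.75 (edgeR adjusted p = 6.53e-05), and Nusap1, a spindle protein, by 0.94 (edgeR adjusted p = 9.22e-05) and 1.04 (edgeR adjusted p = 2.78e-05).

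The 1 higher gene of the mitotic list was Ccnb3, a divergent B-type cyclin known from meiosis. It was between 0.243 and 0.285 CPM in DMSO-WT, at 3 to 4 counts, between 0 and 0.0727 in DMSO-TKO, between 2.20 and 3.53 in TSA-WT and between 1.89 and 2.51 in TSA-TKO. It passed the filter on low counts only through the TSA libraries, where it is high, so its call is not given as support. Of the 18 other cyclin genes, Ccnb3 among them, 3 were called higher and 5 lower in wild type, and 2 higher and 5 lower in TKO, a smaller part than the 52.8% and 58.7% of all genes that were called. Ccnyl1 rose by 0.56 in wild type (edgeR adjusted p = 0.00895) and 1.17 in TKO (edgeR adjusted p = 6.07e-05). Ccnt2 and Ccnl1, cyclins of transcription and splicing, fell in both genotypes, by 0.74 (edgeR adjusted p = 9.35e-05) and 0.61 (edgeR adjusted p = 0.000992) in wild type.

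Among 20 ubiquitin ligase and related genes that turn cyclins over, 1 was higher and 11 lower with TSA in wild type, and 3 higher and 10 lower in TKO, beside 27.0% higher and 25.9% lower of all genes in wild type and 30.8% and 27.9% in TKO. Fbxw7, which marks cyclin E for destruction, rose by 0.36 in each genotype (edgeR adjusted p = 0.0134 and 0.0121). Ube2c, the conjugating enzyme of the anaphase-promoting complex, fell by 0.84 (edgeR adjusted p = 5.98e-05) and 0.97 (edgeR adjusted p = 1.35e-05), and Fzr1, which encodes an activator of that complex, by 0.60 (edgeR adjusted p = 0.00198) and 1.09 (edgeR adjusted p = 3.12e-05).

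**Figure D4:**
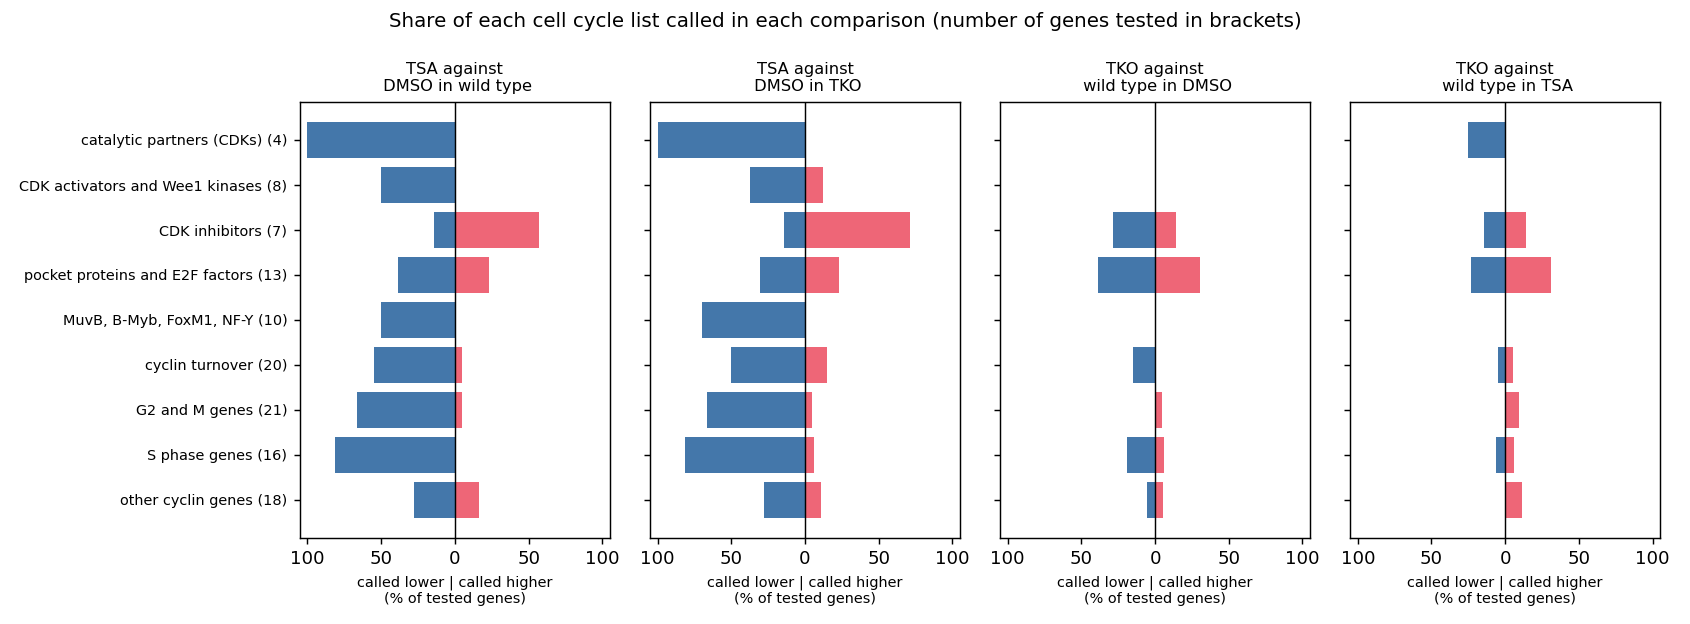
Share of each list of cell cycle genes called lower (blue, to the left) or higher (red, to the right) in 4 comparisons, in percent of the tested genes of the list, whose number is in brackets. With TSA, all 4 cyclin-dependent kinases and 13 of 16 S phase genes were called lower in each genotype. Among all tested genes, 25.9% were lower in wild type and 27.9% in TKO. Between genotypes the pocket protein and E2F list held the most calls, 4 higher and 5 lower of 13 in DMSO, beside 20.4% of all genes.

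Between genotypes in DMSO, 20.4% of all tested genes were called. As a share of its genes, the pocket protein and E2F list held the most calls, 4 higher and 5 lower of 13, followed by the CDK inhibitors with 1 higher and 2 lower of 7. The S phase list had 1 higher and 3 lower of 16, the ubiquitin ligase list 0 higher and 3 lower of 20, the other cyclins 1 higher and 1 lower of 18 and the mitotic list 1 higher and 0 lower of 21. Of the 4 kinases, the 8 activators and inhibitory kinases and the 10 MuvB and NF-Y genes, edgeR called 0. Under TSA, where 18.4% of all genes were called, the pocket protein and E2F list had 4 higher and 3 lower. In DMSO the pocket protein and E2F list members Tfdp1, the partner of E2F proteins, and E2f4, which acts mainly as a repressor, were lower in TKO by 0.90 (edgeR adjusted p = 0.000472) and 0.84 (edgeR adjusted p = 0.00141), and Rbl2, which encodes p130, was higher by 0.64 (edgeR adjusted p = 0.0131). Cdk4 was lower in TKO under TSA by 0.35 (edgeR adjusted p = 0.0242).

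Other genes that followed the 2 members with the widest range were named by Pearson correlation of log2 levels over the 8 libraries, among 14412 candidate genes whose mean reached 1 CPM. The nearest to Ccnd1 were Rab8a (r = 0.997), Zc3hc1 (r = 0.994) and Ndufs6 (r = 0.992). Rab8a went from 160 ± 10.5 CPM in DMSO-WT to 87.2 ± 9.54 in TSA-TKO (SD, n = 2), a far narrower range than that of Ccnd1. The nearest to Ccnd2 were Tmem180 (r = 0.988), Vars2 (r = 0.986) and Mcoln1 (r = 0.984), and Tmem180 went from 10.1 ± 0.484 to 6.61 ± 0.0649 CPM. The points share the 4 groups and the scaling, so these values describe likeness only.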

How the data were processed

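RNA was measured in 8 libraries of mouse embryonic stem cells, 2 for each combination of genotype and treatment, with groups and replicate numbers taken from the labels. Per the labels' protocols, total RNA was depleted of ribosomal RNA, and strand-directional libraries were sequenced as paired reads. The authors deposited raw counts per gene with exon positions and lengths. The submitters' processing notes name TopHat2 2.0.13, featureCounts 1.4.5-p1, edgeR 3.22.3 and the build mm10, and whether counting used strand is not given in the sources used here.

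The test was the quasi-likelihood test of edgeR 4.0.16 (R 4.3.3), fitted to the 4 group means of all 8 libraries with TMM scaling, which leaves 4 residual degrees of freedom. Of 23420 genes, 15822 passed filterByExpr. Tests were two-sided with Benjamini-Hochberg adjustment over all tested genes, and called means an adjusted p below 0.05. SEs are approximate, computed from the F statistic. An exact permutation of 2 libraries against 2 cannot give less than p = 0.333, so p-values of genes rest on the spread shared across genes (common biological coefficient of variation 10.3%). The script was tested on simulated data. No pair of replicates agreed within sampling noise (chi-square per degree of freedom 5.28 to 12.2). The floor of 3 counts covers counting error only.

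RPKM are TMM-scaled CPM per kilobase of exon. Promoter sequences are those of RefSeq, build GRCm38.p6. From each list, at most 3 called genes per direction and comparison, by fold change, could be named, with a mean of at least 1 CPM; Cdk1 completes its list, the other genes at smaller changes or without a call were named after their values were seen. The 9 genes and the lists were chosen with earlier results of these data known. Alternatives were total-count, upper-quartile and DESeq2 scaling, no filter, a replicate block, only the groups compared, DESeq2 1.42.0, and leaving out each library.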

Additional observations from a re-analysis of the deposited data

How the results depend on the processing

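Over 15 alternatives per comparison (14 for the interaction), 730 values of single cyclins kept their direction and side of the threshold, 35 lost the call, 7 gained it and 29 changed sign, all of these last in members not called. A group left with 1 library was assumed to vary like the others. With total counts, wild type TSA changes became 0.044 for Ccnd2, 0.16 for Ccne2 and 0.034 for Ccna2, and for both changes together 0.12 for Ccne2 and 0.11 for Ccna2. With upper quartile, Ccne2 became 0.10 in wild type and, with both changes, Ccne2 became 0.053 and Ccna2 0.045. Ccna2 in TKO TSA became -0.033 without the filter and -0.0090 with only the groups compared. The cause was not tested.

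Leaving out 1 library gave 3 to 5 called members for TSA in wild type, 1 to 2 between genotypes in DMSO, 1 to 3 between genotypes in TSA and 0 to 1 for the interaction. The sign changed in these ranges: wild type TSA Ccnd2 -0.40 to 0.12, Ccnd3 -0.029 to 0.22 and Ccne2 -0.12 to 0.014; TKO TSA Ccna2 -0.10 to 0.096; TKO against wild type Ccnb1 -0.0066 to 0.27 in DMSO and -0.052 to 0.14 in TSA, and Ccne2 -0.075 to 0.068 in TSA; both changes Ccna2 -0.17 to 0.032 and Ccne2 -0.13 to 0.015; interaction Ccnb1 -0.23 to 0.046. DESeq2 called 1 member between genotypes in DMSO and 1 in the interaction, and the fit without the filter 1 in the interaction. The Ccnd1 share moved by -33.8 to -26.7 points with TSA, with 1 library left out.

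Replicate numbers are shared between groups, and the labels do not say what they mark. Deviations of same-numbered libraries correlated at 0.059 to 0.37 across genes. With the replicate block, Ccnd1 passed between genotypes in DMSO (-0.62, adjusted p = 0.00408), making 3 members called there, and Ccnd2 passed in the interaction (-1.25, adjusted p = 0.0141), making 1; the TKO TSA change of Ccna2 became -0.0016, and no other call of a member changed.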
